A study of Mus musculus with 18 samples.

Results

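The genes analysed here encode enzymes that build fatty acids and lengthen or desaturate their chains, together with 1 transcription factor that controls them. They were chosen by symbol, as a fixed list of 10 genes (Fasn, Acaca, Acly, Scd1, Scd2, Fads1, Fads2, Elovl5, Elovl6 and Srebf1) among the 34620 genes with RNA-Seq counts. All 10 were found and had enough counts to be tested. RNA-Seq was performed on the ventral dentate granule cell layer of Swiss Webster males aged 8 to 12 weeks, with 2 libraries per group. WT males had WT mothers and WT grandmothers. F1 males had mothers and grandmothers labelled 5HT1A-/+, heterozygous for the serotonin 1A receptor gene. F2 males had WT mothers, which were the daughters of 5HT1A-/+ females, and grandmothers labelled 5HT1A-/+. Per the study's methods the F1 and F2 males themselves were genetically WT. The F1 males came from crosses in which both parents were heterozygous, and their littermates included heterozygous and knockout mice. The F2 males had WT fathers. The layer was microdissected from frozen sections, so that each library holds the RNA of all cells within the layer. In such bulk samples, a change in the number of cells of a type and a change in RNA per cell cannot be told apart. The methods say that the animals came from several litters. The labels and methods do not say whether the libraries of a group came from separate or pooled animals, so that p-values measure the spread between libraries only.

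Fatty acid synthesis starts in the cytosol from citrate, which ATP citrate lyase (Acly) cleaves to acetyl-CoA. Acetyl-CoA carboxylase (Acaca) makes malonyl-CoA from it, and fatty acid synthase (Fasn) uses both to assemble palmitate. Elovl6 lengthens palmitate to stearate, and the stearoyl-CoA desaturases (Scd1, Scd2) put the first double bond into saturated chains. Fads1 and Fads2 are the delta-5 and delta-6 desaturases that, with Elovl5, convert dietary polyunsaturated fatty acids to arachidonic acid and the long omega-3 fatty acids. Srebf1 encodes SREBP-1, the sterol-regulated factor that activates most of these genes. In the brain these enzymes serve the synthesis of membrane lipids and myelin, and glia express several of them strongly.

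Reads counted on genes ranged from 26358165 to 33727936 per library, and 17421 genes had enough counts to be tested. Values are CPM, read counts scaled to the size of each library after TMM normalization, which sets the sizes so that most genes do not shift between libraries. Comparisons were made with the exact test of edgeR, and a gene was called at an adjusted p under 0.01. Over all genes, 2144 were called in F1 against WT (657 higher and 1487 lower) and 2084 in F2 (673 and 1411). With an adjustment for GC content and exon length in edgeR's quasi-likelihood test, these splits were 678 higher and 733 lower in F1 and 443 and 694 in F2, against 206 and 823 in F1 and 214 and 783 in F2 without the adjustment. Both comparisons use the same WT libraries. Htr1a, the serotonin 1A receptor gene, was at 59.0 ± 4.57 CPM (SD, n = 2) in WT, 52.2 ± 4.06 in F1 and 67.6 ± 1.42 in F2 and was not called. The granule cell markers were present in every library, with Prox1, a transcription factor of dentate granule cells, between 228 and 345 CPM.

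In F1, 5 of the 10 genes rose against WT by edgeR's exact test and none fell, at the threshold or at an unadjusted p under 0.05. These were the synthesis genes Fasn and Acaca and the desaturase genes Scd1, Scd2 and Fads2. Of all tested genes, 3.77% were called higher in F1. In F2, 3 of the 10 rose, all of them desaturase genes (Scd1, Scd2 and Fads2), and again none fell by either measure. Of all tested genes, 3.86% were called higher in F2. The median log2 fold change of the 10 genes was 0.42 in F1 and 0.33 in F2, beside medians of 0.01 and 0.00 over all tested genes. The mean was higher than in WT for all 10 genes in F1 and in F2, as for 50.9% and 50% of all tested genes. In F1, 9 of the 10 had both libraries above both WT libraries, and in F2 likewise 9, beside 29.8% and 31% of all tested genes. At an adjusted p under 0.05, 7 of the 10 were higher in F1 and 5 in F2, beside 8.08% and 8.21% of all tested genes, and at an unadjusted p under 0.05, 7 and 8 differed, beside 32.6% and 32.4% in either direction. With the quasi-likelihood test of edgeR, 2 of the 10 rose in F1 (Fasn and Scd2) and 3 in F2 (Scd1, Scd2 and Fads2), beside 1.18% and 1.23% of all tested genes. With the adjustment for GC content and exon length in that test, 5 rose in F1 (Fasn, Acaca, Acly, Scd1 and Scd2) and 4 in F2 (Fasn, Scd1, Scd2 and Fads2), beside 3.97% and 2.59%. The study drew Fasn, Scd1, Scd2 and Fads2 into its lipid gene lists from its own calls in these libraries. Neither their calls here nor their direction is therefore independent evidence. The shares over all tested genes do not allow for this choice of genes. Its lists hold genes changed in both F1 and F2, whereas Fasn passed the threshold of 0.01 by the exact test in F1 only.

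**Figure D1:**
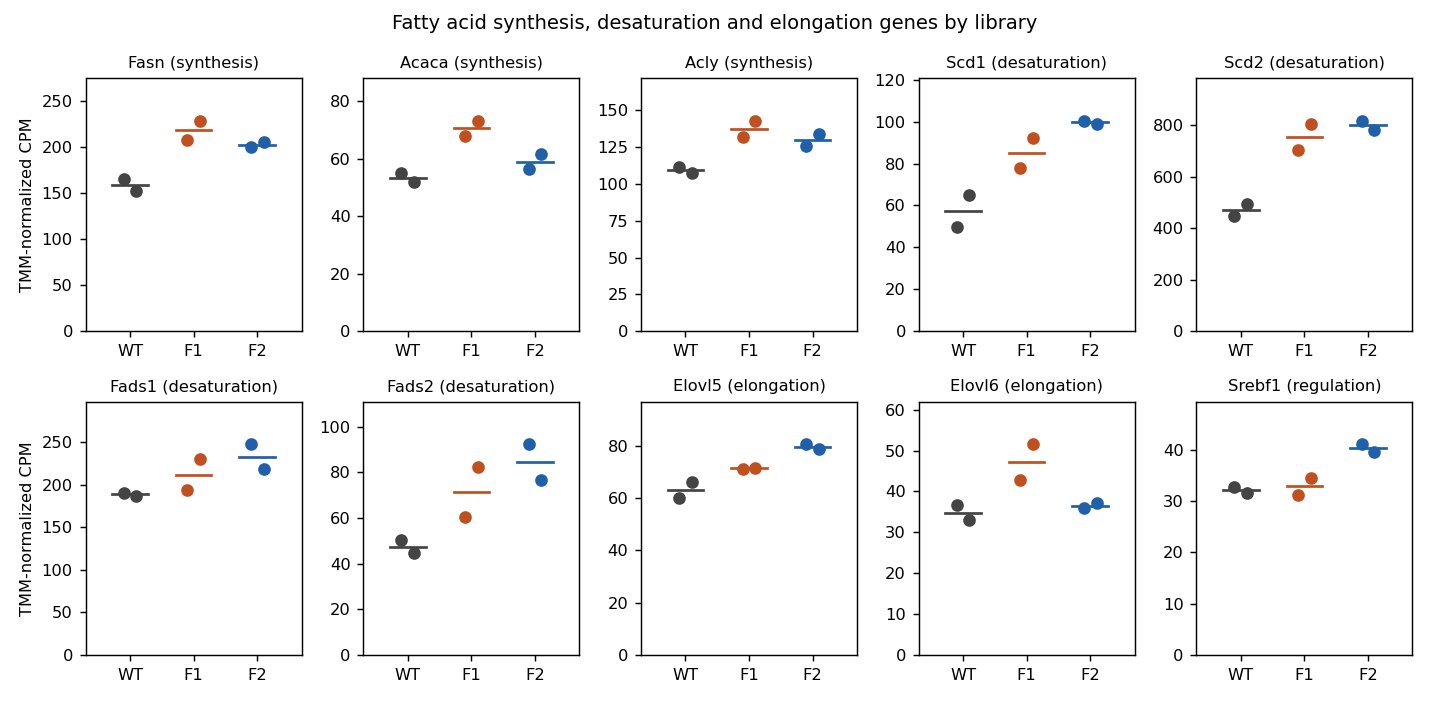
TMM-normalized CPM (linear axes from 0, a separate scale in each panel) of each gene in the WT, F1 and F2 libraries. Points are single libraries, replicate 1 on the left, and bars are group means of 2 libraries. Scd2 sits between 446 and 492 CPM in WT and between 704 and 817 CPM in the F1 and F2 libraries, while the F1 libraries of Srebf1 overlap with WT.

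Of the synthesis genes, Fasn and Acaca rose in F1. Fasn, on chromosome 11 from 120667254 to 120685492 on the minus strand (mm9, ENSMUSG00000025153.8, protein-coding), was at 165 and 152 CPM in WT, 208 and 229 in F1, and 199.98 and 206 in F2. All F1 and F2 libraries lay above both WT libraries. Its log2 fold change was 0.46 in F1 (standard error 0.12, edgeR-adjusted p = 0.0011) and 0.36 in F2 (standard error 0.12, edgeR-adjusted p = 0.0167), so that it passed the threshold in F1 only. These 2 changes were not shown to differ (log2 fold change of F2 against F1 -0.11, 95% interval -0.33 to 0.12, edgeR-adjusted p = 0.952). Without WT replicate 2 the adjusted p of Fasn in F1 was 0.0437, and without F1 replicate 2 it was 0.0355. In F2, Fasn passed the threshold when F1 replicate 1 or F1 replicate 2 was left out of the dispersion estimate (adjusted p = 0.0091 and 0.00896 by edgeR). With the adjustment for GC content and exon length its log2 fold change was 0.66 in F1 and 0.51 in F2, and both passed (adjusted p = 0.000748 and 0.00266 by edgeR's quasi-likelihood test).

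Acaca, on chromosome 11 from 83943174 to 84215153 on the plus strand (ENSMUSG00000020532.10), was at 54.9 and 52.0 CPM in WT, 67.9 and 73.3 in F1, and 56.3 and 61.7 in F2. The F1 libraries stood clear of WT, while the lower F2 library exceeded the higher WT library by little. The log2 fold change was 0.40 in F1 (standard error 0.12, edgeR-adjusted p = 0.00761) and 0.14 in F2 (95% interval -0.10 to 0.38, edgeR-adjusted p = 0.448). The F1 call of Acaca was the least firm of the 5. It was lost with any library left out except F1 replicate 1, with adjusted p-values of 0.0419 and 0.0926 without WT replicates 1 and 2, 0.0892 without F1 replicate 2, and 0.0163 and 0.0147 without F2 replicates 1 and 2. By edgeR's quasi-likelihood test the adjusted p was 0.0215. Acly, on chromosome 11 from 100337667 to 100389314 on the minus strand (ENSMUSG00000020917.10), was at 112 and 107 CPM in WT, 132 and 143 in F1, and 126 and 134 in F2. Its F1 and F2 libraries lay above WT, but neither comparison passed (log2 fold change 0.33, adjusted p = 0.0288 in F1, and 0.25, adjusted p = 0.117 in F2, by edgeR).

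The desaturase genes Scd1, Scd2 and Fads2 rose in both F1 and F2. Scd2, the main stearoyl-CoA desaturase gene of the brain, was by far the most abundant. It lies on chromosome 19 from 44368166 to 44381354 on the plus strand (ENSMUSG00000025203.5) and was at 446 and 492 CPM in WT, 704 and 805 in F1, and 817 and 781 in F2. All F1 and F2 libraries lay above both WT libraries, while F1 and F2 overlapped with each other. The rise was 1.61-fold in F1 and 1.70-fold in F2. In log2 fold changes this is 0.69 (standard error 0.12, edgeR-adjusted p = 7.88e-07) and 0.77 (standard error 0.12, edgeR-adjusted p = 2.18e-08). Scd2 was called in both comparisons in every alternative run, quasi-likelihood tests and left-out libraries included. Scd1, on chromosome 19 from 44468941 to 44482199 on the minus strand (ENSMUSG00000037071.2), lies 87.6 kb from Scd2. It was at 49.7 and 65.2 CPM in WT, 77.7 and 92.2 in F1, and 101 and 98.8 in F2. The WT libraries differed from each other by more than those of F2, and all F1 and F2 libraries lay above them. The rise was 1.48-fold in F1 (log2 fold change 0.57, standard error 0.14, edgeR-adjusted p = 0.00122) and 1.74-fold in F2 (0.80, standard error 0.14, edgeR-adjusted p = 1.59e-06). In F1 its call was lost without WT replicate 1 (log2 fold change 0.39, edgeR-adjusted p = 0.0993), without F1 replicate 2 (0.45, adjusted p = 0.0581) and by the quasi-likelihood test (adjusted p = 0.0157). In F2 it was kept in every alternative run. Scd genes are similar in sequence, and reads that fit more than 1 of them equally well were not counted.

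Fads2, on chromosome 19 from 10138654 to 10175993 on the minus strand (ENSMUSG00000024665.7), was at 50.2 and 44.7 CPM in WT, 60.7 and 82.4 in F1, and 92.4 and 76.5 in F2. All F1 and F2 libraries were above WT, with a wide spread between the F1 libraries. The rise was 1.51-fold in F1 (log2 fold change 0.59, standard error 0.16, edgeR-adjusted p = 0.00201) and 1.78-fold in F2 (0.83, standard error 0.16, edgeR-adjusted p = 4.49e-06). The F1 call was lost without F1 replicate 2 (log2 fold change 0.36, edgeR-adjusted p = 0.125), without WT replicate 1 or 2 (adjusted p = 0.0113 and 0.0633) and by the quasi-likelihood test (adjusted p = 0.0203, and 0.0159 with the adjustment for GC content and exon length). The F2 call was kept in every alternative run. Fads1, its neighbour 81.4 kb away (chromosome 19 from 10257378 to 10271360 on the plus strand, ENSMUSG00000010663.4), was at 190 and 187 CPM in WT, 193 and 230 in F1, and 247 and 218 in F2. F1 replicate 1 was close to WT. Neither comparison passed for Fads1, with log2 fold changes of 0.17 in F1 (95% interval -0.08 to 0.41, edgeR-adjusted p = 0.373) and 0.30 in F2 (0.06 to 0.55, edgeR-adjusted p = 0.0696).

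Of the elongase genes, neither was called. Elovl5, on chromosome 9 from 77765171 to 77832326 on the plus strand (ENSMUSG00000032349.7), was at 60.2 and 66.3 CPM in WT, 71.2 and 71.5 in F1, and 80.6 and 78.9 in F2. The groups did not overlap, but the log2 fold changes of 0.17 in F1 (edgeR-adjusted p = 0.299) and 0.34 in F2 (edgeR-adjusted p = 0.0242) did not pass. Elovl6, on chromosome 3 from 129235304 to 129341413 on the plus strand (ENSMUSG00000041220.6), was at 36.6 and 32.9 CPM in WT, 42.9 and 51.6 in F1, and 36.0 and 37.1 in F2. Its F1 libraries were above all others, and its F2 libraries overlapped with WT. In F1 it lay just short of the threshold (log2 fold change 0.44, standard error 0.14, edgeR-adjusted p = 0.0105) and passed it without F1 replicate 1 (0.58, edgeR-adjusted p = 0.00147) and with RLE or upper-quartile normalization (edgeR-adjusted p = 0.00954 and 0.00896). In F2 the log2 fold change was 0.07 (95% interval -0.20 to 0.34).

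Srebf1, on chromosome 11 from 60012591 to 60036083 on the minus strand (ENSMUSG00000020538.8), was at 32.7 and 31.7 CPM in WT, 31.2 and 34.6 in F1, and 41.1 and 39.6 in F2. F1 overlapped with WT and F2 lay above it. The log2 fold change was 0.03 in F1 (95% interval -0.22 to 0.29, edgeR-adjusted p = 0.912) and 0.33 in F2 (0.07 to 0.58, edgeR-adjusted p = 0.0564), and neither passed. Exons of Srebf1 overlap with exons of Rai1 on the opposite strand. The library kit does not mark strand, and reads lying wholly within exons of both were not counted. Acaca and Scd2 also overlap with an annotated transcript, of which the one at Acaca was at or near 0 CPM in every library. The one at Scd2 lies on the same strand as Scd2. Its level is not given here, and its effect on the Scd2 counts was not tested.

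**Figure D2:**
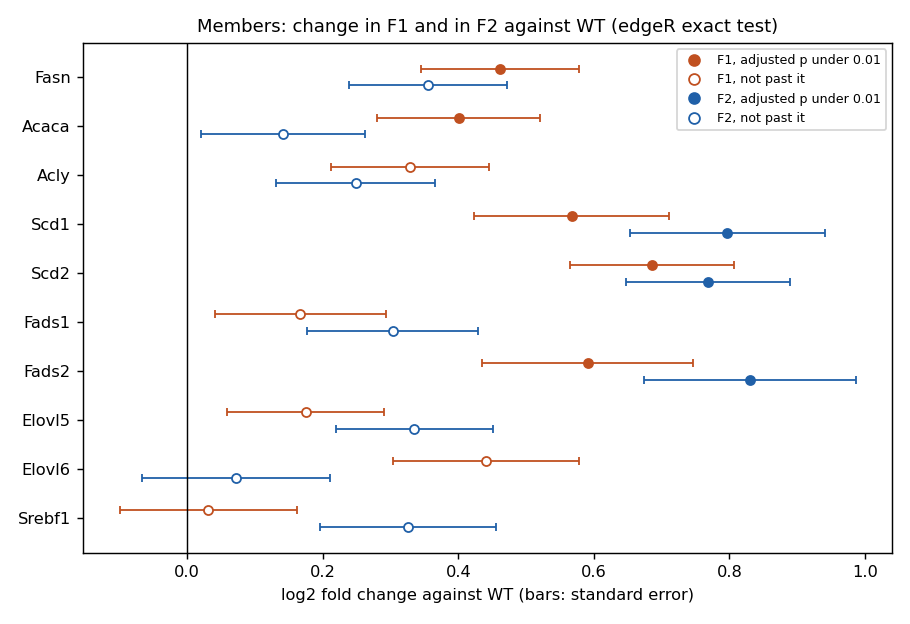
Log2 fold change against WT of each gene in F1 (orange) and F2 (blue), with bars of 1 standard error, 2 libraries per group. Standard errors follow from mean counts and the dispersion from all 6 libraries. Filled points passed an adjusted p under 0.01 by edgeR's exact test. The filled points are 5 genes in F1 and Scd1, Scd2 and Fads2 in F2.

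None of the 10 genes was called between F2 and F1 by edgeR's exact test, where 0.74% of all tested genes were, nor by its quasi-likelihood test. At an unadjusted p under 0.05, 3 of the 10 differed by either test (Acaca, Elovl6 and Srebf1), as did 8.64% of all tested genes by the exact test. Elovl6 was lower in F2 than in F1 (log2 fold change -0.37, 95% interval -0.64 to -0.10, edgeR-adjusted p = 0.234), as was Acaca (-0.26, -0.49 to -0.02, adjusted p = 0.475), while Srebf1 was higher (0.29, 0.04 to 0.55, adjusted p = 0.422). In sign, all 3 synthesis genes and Elovl6 had a lower mean in F2 than in F1, and all 4 desaturase genes, Elovl5 and Srebf1 had a higher one. These signs are given as a description, since no single gene passed. The intervals leave room for differences in either direction for Fasn, Acly, Scd1, Scd2, Fads1, Fads2 and Elovl5.

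Per kilobase of exon, a scale on which genes can be compared, Scd2 was the most abundant in every group, at 86.0 ± 5.91 CPM per kilobase in WT (SD, n = 2), 138 ± 13.0 in F1 and 147 ± 4.72 in F2. Fads1 followed, at 54.5 ± 0.695, 61.2 ± 7.39 and 67.3 ± 6.05 CPM per kilobase. Acly, Elovl5 and Fasn formed a middle group, between 16.1 and 20.7 CPM per kilobase in WT, where the WT libraries of Fasn, at 16.8 and 15.5, lay just below those of Elovl5, at 17.1 and 18.8. Scd1 was at 11.9 ± 2.27 CPM per kilobase in WT, and its F2 level of 20.6 ± 0.25 did not differ from that of Fasn (20.6 ± 0.456) beyond their spread. Elovl6, Srebf1 and Acaca were lowest, between 5.25 and 5.84 CPM per kilobase in WT. The WT libraries of Elovl6 and Srebf1 overlapped, and those of Acaca lay just below. The level of Fads2, 31.5 ± 2.595 CPM per kilobase in WT, is not ranked here: its gene model in the annotation (GENCODE M1) has 1508 exon bases, of which 88.3% are coding, against 13.5% to 76.3% in the other genes, and the annotation behind the counts is not given in the sources used here.

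Ratios of related enzymes within a library do not depend on library size. Fads2 over Fads1, per kilobase, was 0.606 and 0.549 in the WT libraries, 0.719 and 0.822 in F1, and 0.856 and 0.805 in F2. All F1 and F2 values lay above WT. Only the differences between libraries can be read from this ratio, for the reason given for the length of Fads2. Scd1 over Scd2 stayed in a narrow range in all groups, 0.125 and 0.149 in WT, 0.125 and 0.129 in F1, and 0.139 and 0.143 in F2. WT overlapped with both other groups, and both F2 libraries lay above both F1 libraries. Elovl6 over Elovl5 was 0.359 and 0.294 in WT, 0.356 and 0.427 in F1, and 0.264 and 0.278 in F2, so that the F2 libraries were below all others and F1 overlapped with WT. These ratios are given as a description and were not tested.

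**Figure D3:**
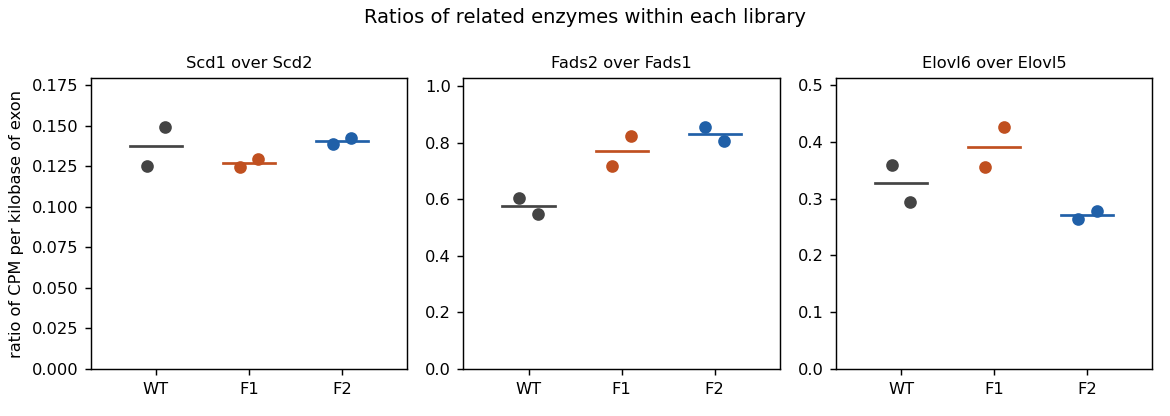
Ratios of CPM per kilobase of exon between related enzymes (linear axes from 0), by library (points, replicate 1 on the left) with group means of 2 libraries (bars). Fads2 over Fads1 is higher in all F1 and F2 libraries than in WT, from 0.719 to 0.856 against 0.549 and 0.606.

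Sequences before the start site are shown for Fasn and Fads2, genes that rose in F1 and that represent the synthesis and desaturation branches. They are the 250 bases before the RefSeq start (GRCm38.p6, a later build than that of the counts), Fasn at chr11:120824548-120824797 and Fads2 at chr19:10101504-10101753, both on the minus strand. Capitals mark matches on either strand to CCAAT, the letters bound by NF-Y, a partner of SREBP, to GGGCGG, the letters bound by Sp1 or to CACGTG, an E-box.
Fasn: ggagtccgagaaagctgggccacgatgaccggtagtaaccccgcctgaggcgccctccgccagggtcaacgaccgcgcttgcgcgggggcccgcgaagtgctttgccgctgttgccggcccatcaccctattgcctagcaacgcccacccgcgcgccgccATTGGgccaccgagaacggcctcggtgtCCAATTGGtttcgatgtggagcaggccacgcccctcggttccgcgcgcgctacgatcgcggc
Fads2: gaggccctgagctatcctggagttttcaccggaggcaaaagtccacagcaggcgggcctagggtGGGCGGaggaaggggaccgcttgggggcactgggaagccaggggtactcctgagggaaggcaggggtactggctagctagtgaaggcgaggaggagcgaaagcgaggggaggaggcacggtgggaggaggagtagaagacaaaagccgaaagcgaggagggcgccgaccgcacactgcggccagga
Fasn held 3 matches to CCAAT, 2 of them overlapping, and Fads2 held 1 match to GGGCGG. Of the 10 genes, 7 had an entry among the RefSeq promoters, with 9 start sites in all. CCAAT also occurred at Elovl5 (2 matches) and at 2 of the 3 starts of Srebf1, GGGCGG at Acly (4 matches) and at 2 starts of Srebf1, and CACGTG at Elovl5. Among 32851 mouse promoters of the same length, 33.8% held CCAAT, 32.7% GGGCGG and 6.02% CACGTG. Such matches describe the sequence and are not evidence of binding.

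Besides these 10 genes, 41 further genes of the same pathway were examined, of which 40 were tested. Elovl3, an elongase gene of skin and brown fat, had at most 1 count per library and was not. In F1, 2 of the 40 rose and 1 fell, and in F2, 3 rose and none fell, by edgeR's exact test. The share of all tested genes called higher was 3.77% in F1 and 3.86% in F2, and 8.54% and 8.1% were called lower. The median log2 fold change of the 40 was 0.03 in F1 and 0.03 in F2. No gene was called among the 6 tested partners of desaturation or the 10 of elongation by edgeR's exact test. At an unadjusted p under 0.05, 1 and 0 of the desaturation partners and 3 and 4 of the elongation partners differed in F1 and F2. Of all tested genes, 32.6% and 32.4% did.

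Among the 9 synthesis partners, Me1 and Mid1ip1 were called. Me1, the cytosolic malic enzyme that supplies NADPH for fatty acid synthesis, was at 66.4 and 72.0 CPM in WT, 101 and 89.6 in F1, and 54.1 and 65.9 in F2. F1 was above and F2 below WT. It rose in F1 (log2 fold change 0.47, standard error 0.13, edgeR-adjusted p = 0.00445) and had a log2 fold change of -0.21 in F2 (95% interval -0.47 to 0.05, adjusted p = 0.284). The F1 call of Me1 was lost without WT replicate 1, WT replicate 2 or F1 replicate 1 (adjusted p = 0.0923, 0.0161 and 0.056) and by edgeR's quasi-likelihood test (adjusted p = 0.0211). Mid1ip1, which promotes polymerization of acetyl-CoA carboxylase, was at 37.9 and 43.3 CPM in WT, 50.9 and 55.8 in F1, and 57.8 and 55.9 in F2. All F1 and F2 libraries were above WT. It rose in F2 (log2 fold change 0.49, standard error 0.13, edgeR-adjusted p = 0.00164) and had 0.39 in F1 (adjusted p = 0.0139). The F2 call of Mid1ip1 was lost without WT replicate 1, F2 replicate 1 or F2 replicate 2 (adjusted p = 0.0833, 0.0587 and 0.0247) and by the quasi-likelihood test (adjusted p = 0.0123).

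Among the 15 regulators, Prkaa2, Insig1 and Mlxipl were called. The study's lists of lipid genes changed in both F1 and F2, drawn from these libraries, hold Prkaa2 and Insig1. The calls of these genes here are therefore not independent evidence, and Insig1 passed in F2 only. Prkaa2, a catalytic subunit of AMP-activated kinase, which phosphorylates and inhibits acetyl-CoA carboxylase, was at 15.5 and 16.8 CPM in WT, 24.4 and 27.8 in F1, and 25.7 and 23.3 in F2. It rose in F1 (log2 fold change 0.69, standard error 0.15, edgeR-adjusted p = 0.000116) and in F2 (0.60, standard error 0.15, edgeR-adjusted p = 0.00121). The F1 call of Prkaa2 was lost without WT replicate 1 (adjusted p = 0.0181), and the F2 call without WT replicate 1, F2 replicate 1 or F2 replicate 2 (adjusted p = 0.0574, 0.073 and 0.011) and by the quasi-likelihood test (adjusted p = 0.0102). Insig1, which holds SREBP in the endoplasmic reticulum and is itself a target of SREBP, was at 36.2 and 41.4 CPM in WT, 48.4 and 52.5 in F1, and 57.7 and 54.7 in F2. It rose in F2 (log2 fold change 0.53, standard error 0.13, edgeR-adjusted p = 0.000494) and had 0.38 in F1 (adjusted p = 0.02). The F2 call of Insig1 was lost without WT replicate 1 or F2 replicate 1 (adjusted p = 0.0498 and 0.0413). Mlxipl, the carbohydrate-response factor ChREBP, was low, at 4.21 and 3.84 CPM in WT, 2.11 and 1.91 in F1, and 2.32 and 2.93 in F2. All F1 and F2 libraries were below WT. It fell in F1 (log2 fold change -1.0, standard error 0.26, edgeR-adjusted p = 0.00136) and had -0.62 in F2 (adjusted p = 0.0653). The F1 call of Mlxipl was lost without WT replicate 1, WT replicate 2 or F1 replicate 2 (adjusted p = 0.0504, 0.0139 and 0.0315), by the quasi-likelihood test (adjusted p = 0.0147) and by DESeq2 (adjusted p = 0.0192). Srebf2, which encodes the cholesterol-directed SREBP-2, was at 113 and 95.2 CPM in WT, 126 and 155 in F1, and 118 and 135 in F2, and was not called (log2 fold change 0.43, adjusted p = 0.0165 in F1, and 0.28, adjusted p = 0.149 in F2, by edgeR). It passed in F1 without F1 replicate 1 (0.59, adjusted p = 0.00196).

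**Figure D4:**
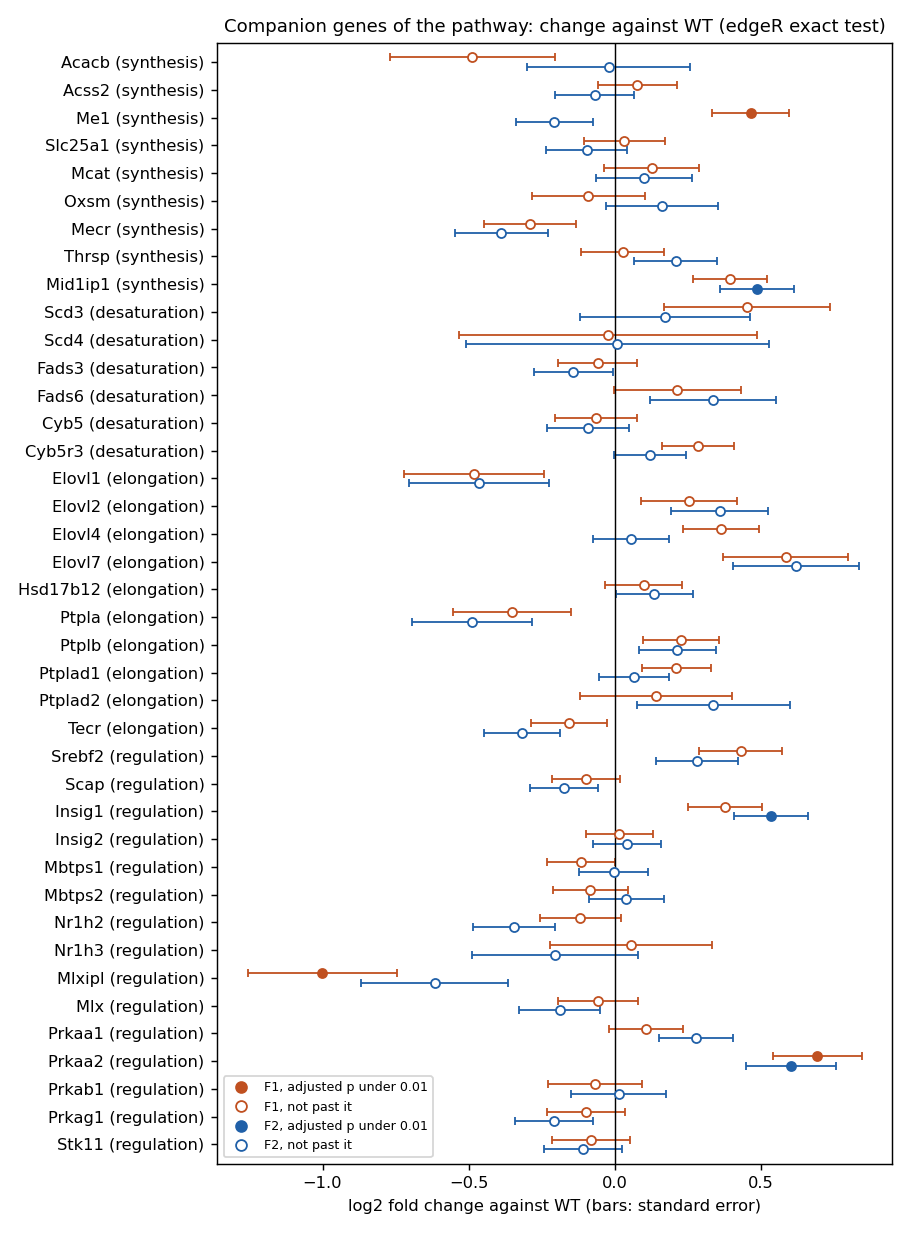
Log2 fold change against WT of the 40 tested companion genes in F1 (orange) and F2 (blue), with bars of 1 standard error, 2 libraries per group. Filled points passed an adjusted p under 0.01 in edgeR's exact test. Prkaa2 is filled in both groups, Me1 and Mlxipl in F1, and Mid1ip1 and Insig1 in F2.

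Markers of other cell types moved with the groups, and several genes of this pathway are strongly expressed in glia. The summed level of 9 astrocyte markers was 1337 and 1393 CPM in WT, 1575 and 1921 in F1, and 1762 to 2148 in F2, and 1 of the 9 was called higher in F1 and 4 in F2. The 9 microglia markers summed to 134 and 135 CPM in WT, 160 and 184 in F1, and 178 to 204 in F2. By edgeR's exact test, 0 of them were called higher in F1 and 5 in F2. Of all tested genes, 3.77% were called higher in F1 and 3.86% in F2. At an unadjusted p under 0.05, 5 of the 9 astrocyte markers differed in F1 and 8 in F2. Of the 9 microglia markers, 5 and 7 did, beside 32.6% and 32.4% of all tested genes. By libraries, the order of Scd2 from the lowest (WT replicate 1) to the highest (F2 replicate 1) was that of both summed levels. Fads1 and Fads2 had the same order except that the WT libraries changed places. The 7 endothelial markers also followed this order, from 106 and 117 CPM in WT to 148 in F2 replicate 1, with 1 called higher in F1 and 1 in F2. The rest of the 10 genes did not follow it. Fasn, Acaca, Acly and Elovl6 were highest in F1 replicate 2, and Scd1, Elovl5 and Srebf1 had still other orders. The match was seen after the values were known. The 4 oligodendrocyte precursor markers summed to 52.4 and 60.2 CPM in WT, 83.4 and 92.3 in F1, and 81.7 and 86.8 in F2, with 2 called higher in F1 and 1 in F2. No defining marker of these lists was at 0 in any library. Their part in the changes of the 10 genes was not tested.

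The 14 oligodendrocyte markers summed to 1162 and 2103 CPM in WT, 3164 and 2380 in F1, and 1642 and 3080 in F2. Of these, 5 were called higher in F1 and 2 in F2, beside 3.77% and 3.86% of all tested genes. At an unadjusted p under 0.05, 13 of the 14 differed in F1 and 11 in F2, beside 32.6% and 32.4% of all tested genes. All 14 had both F1 libraries above both WT libraries, as had 4 in F2, beside 29.8% and 31% of all tested genes. The median log2 fold change of the 14 was 0.83 in F1 and 0.64 in F2. The summed level in F2 overlapped with WT. The part of these markers in the changes of the 10 genes was not tested. The 6 granule neuron markers summed to 1184 and 1143 CPM in WT, 1047 and 1261 in F1, and 1392 and 1359 in F2, and none was called. At an unadjusted p under 0.05, 2 of the 6 differed in F1 and 4 in F2, beside the same 32.6% and 32.4% of all tested genes. Of the 4 choroid plexus markers, 2 had too few counts to be tested, the others were not called (1 of 2 with an unadjusted p under 0.05 in F2, none in F1), and Ttr was at most 1.10 CPM. Interneuron markers (5 genes) summed to 547 to 758 CPM across all libraries. Markers of mossy cells and CA fields (7 genes) summed to 267 and 322 CPM in WT, 269 and 186 in F1, and 290 and 273 in F2. Of these 2 lists, 1 interneuron marker was called higher in F2, with no other call by the exact test. The share of uniquely aligned reads outside annotated exons also moved with the groups, at 17.7% and 20.7% in WT, 13.8% and 12.2% in F1, and 13.9% and 17.4% in F2, and its part in the result was not tested.

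**Figure D5:**
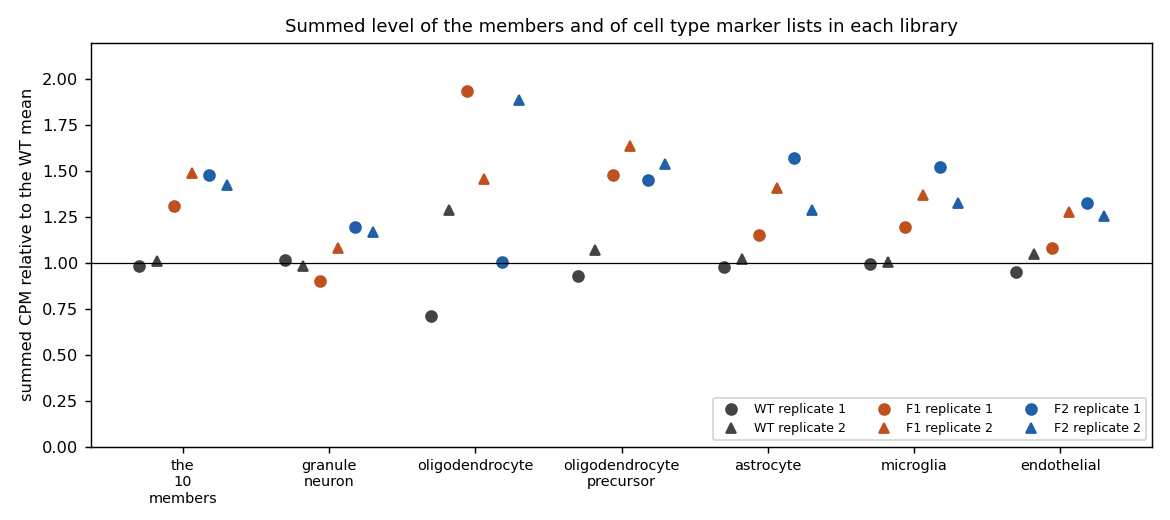
Summed CPM of the 10 genes and of 6 marker lists in each library, divided by the mean of the WT libraries (linear axis from 0). Colours are groups, circles replicate 1 and triangles replicate 2. The 10 genes lie between 1.31 and 1.49 in F1 and F2, the astrocyte list between 1.15 and 1.57, and the oligodendrocyte list spreads within every group.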

How the data were processed

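RNA was prepared from the microdissected ventral dentate gyrus of WT, F1 and F2 males with the TruSeq RNA kit. The authors mapped single-end reads to mm9 (TopHat, known junctions only) and deposited raw counts per gene symbol from HTSeq in its intersection-strict mode, which drops reads that reach outside exons, align to several places or lie within exons of more than 1 gene. Groups and replicate numbers follow the labels. Bisulfite sequencing samples were not analysed here.

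The genes and lists were chosen with earlier results of these data known. All members are named, of each companion list the called genes (at most 4) and any not tested, Srebf2, and Htr1a; cell type markers are given as sums and counts. Prox1 and Ttr were named after their values were seen.

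In edgeR 4.0.16 (R 4.3.3), low genes were removed by filterByExpr, library sizes were scaled by TMM, and groups were compared by the exact test with tagwise dispersion from all 6 libraries and Benjamini-Hochberg adjustment over 17421 genes. The study's results use a threshold of 0.01 and its methods 0.05. The common dispersion of 0.0113 is a coefficient of variation of 10.6% between libraries. At 26358165 to 33727936 counted reads, the number of libraries limits the precision. Standard errors follow from mean counts and dispersion by the delta method, and 95% intervals are 1.96 standard errors on either side. Positions, exon lengths and GC content (98.0% of tested genes) come from GENCODE M1 on mm9. Replicates were not duplicates (chi-square per degree of freedom between 18.5 and 23.0). Alternatives tried included a quasi-likelihood test, a likelihood-ratio test, DESeq2 1.42.0, other normalizations, filters and dispersion, GC and length offsets, a replicate block, and each library left out in turn. The procedure was tested on simulated data. Tables and plots used Python 3.11.15, pandas 2.3.3 and matplotlib 3.10.9.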

Additional observations from a re-analysis of the deposited data

Results flagged for a closer look

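Me1 differed between F2 and F1, with a log2 fold change of -0.67 (standard error 0.13, adjusted p = 0.000144 by edgeR's exact test), and its F1 libraries were above and its F2 libraries below both WT libraries. It was the only companion gene called in this comparison, and none of the 10 genes was. The call was lost by edgeR's quasi-likelihood test (adjusted p = 0.048), without F1 replicate 1 (-0.58, adjusted p = 0.0166 by edgeR) and without F2 replicate 1 (-0.53, adjusted p = 0.184 by edgeR).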

How the results depend on the processing

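In F2, Scd1, Scd2 and Fads2 were called in every alternative run. In F1, Scd2 was called in every alternative run, and the number of the 10 genes called fell from 5 to 2 by edgeR's quasi-likelihood test, to 1 by this test with the replicate block, and to 3 with GC and length offsets and the block. At a threshold of 0.05, 5 of the 10 were called in F2. Of the companion genes, 3 called in F1 became 1 by the quasi-likelihood test, 1 with the block and 1 with offsets and the block, and 8 at 0.05; in F2, 3 became 1, 0 and 1. Over all genes the quasi-likelihood test gave 1029 in F1, 997 in F2 and 2 in F2 against F1, with the replicate block 848, 758 and 9, with GC and length offsets 1411, 1137 and 3, with offsets and the block 906, 726 and 3, and the 0.05 threshold gave 3623, 3606 and 230. The labels give the groups the same replicate numbers and do not say that these mark a pairing. Across genes, same-numbered libraries did not deviate together (correlations of -0.03, -0.08 and -0.18). Such correlations cannot show how the libraries were prepared.

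With a library left out, the 10 genes called in F1 ranged from 1 (without F1 replicate 2) to 6 (without F1 replicate 1), with 2 without either WT replicate. Companion genes ranged from 0 (without WT replicate 1) to 4 in F1, and from 0 (without WT replicate 1 or F2 replicate 1) to 3 in F2. All genes called ranged from 988 (without WT replicate 1) to 2043 in F1, with 1355 without WT replicate 2 and 1072 without F1 replicate 2. In F2 they ranged from 703 (without F2 replicate 1) to 2585, with 802 without WT replicate 1 and 973 without F2 replicate 2. In F2 against F1 they ranged from 52 (without F2 replicate 1) to 223 (without F1 replicate 2). Among the 10 genes, signs turned in 2 log2 fold changes, neither of them called. Srebf1 in F1 ranged from -0.038 (without F1 replicate 2) to 0.12, and Scd2 in F2 against F1 from -0.012 (without F1 replicate 1) to 0.18. The cause of these shifts was not tested. When a group is left with 1 library, that library is assumed to vary like the other groups. By the exact test with all libraries, log2 fold changes of 0.33 for Acly in F1 and 0.36 for Fasn in F2 did not pass; Acly passed with GC and length offsets (0.38, adjusted p = 0.00854 by edgeR), and Fasn with these offsets, by DESeq2 (0.36, adjusted p = 0.00991) and with upper-quartile scaling (0.37, adjusted p = 0.00975 by edgeR).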
